A study of Homo sapiens with 3 samples.

Results

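The genes described here are 10 components of the Notch pathway, namely the receptors NOTCH1, NOTCH2 and NOTCH3, the ligands JAG1, JAG2, DLL1 and DLL4, and the target genes HES1, HEY1 and NRARP. They were chosen by symbol among the 16149 genes listed in at least 1 of 3 mRNA libraries, and a gene without a row in a library was taken as 0 there. Each library came from another cultured strain of HCCLM3, a human hepatocellular carcinoma (HCC) line, grown in DMEM. The parent is labelled as having low metastasis ability, subclone 1 as having a higher ability directed to the lung, and subclone 2 as metastasizing to lung as well as celiac lymph node. The study describes its parental line as HCCLM3-R, a derivative that carries red fluorescent protein, and gives that line a high metastatic potential. Its monoclonal lines were grown from single cells of lung or lymph node metastases of xenografts in nude mice. The sources used here do not say which lines were sequenced. A subclone that is such a line is 1 clone. Every group holds 1 library, so no value below has a replicate error and no difference between cell lines can be tested. The intervals given are exact 95% intervals from read numbers and cover counting error only. Levels are in RPKM, the number of reads on a gene divided by gene length and by library size. They are per length, so a comparison between genes rests on the gene lengths used.

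Notch receptors are transmembrane proteins that are activated by ligands on a neighbouring cell. After binding, an ADAM protease and then gamma-secretase cut the receptor, and its intracellular domain enters the nucleus, where it joins the DNA-binding protein RBPJ and Mastermind coactivators to switch on target genes. In the liver the pathway is best known for biliary development, in which JAG1 and NOTCH2 take part, and loss of function of either gene causes Alagille syndrome. HES1 and HEY1 are basic helix-loop-helix repressors, and NRARP is a small ankyrin-repeat protein that restrains Notch signalling as a feedback inhibitor.

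The sequences shown are the 150 bases before the start of HES1, NRARP and HES4, which bear on the target genes below, and of NOTCH2 and its partial copy NOTCH2NLA, whose similarity bears on how the reads of NOTCH2 were assigned. They are RefSeq sequences on GRCh38.p14, read 5′ to 3′ along the gene, and 8 of the 10 members had an entry in the promoter table. HES1 lies at chr3:194135998-194136147 on the plus strand. NRARP lies at chr9:137302272-137302421, HES4 at chr1:1000098-1000247, NOTCH2 at chr1:120069663-120069812 and NOTCH2NLA at chr1:146229022-146229171, each on the minus strand. Capitals mark TGGGAA, the core letters of the RBPJ recognition sequence.
HES1: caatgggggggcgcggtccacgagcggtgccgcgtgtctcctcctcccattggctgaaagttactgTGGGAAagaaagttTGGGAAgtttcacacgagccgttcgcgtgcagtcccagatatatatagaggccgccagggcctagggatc
NRARP: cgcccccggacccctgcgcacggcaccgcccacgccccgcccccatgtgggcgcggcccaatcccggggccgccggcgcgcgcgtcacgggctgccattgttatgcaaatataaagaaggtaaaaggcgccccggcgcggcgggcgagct
HES4: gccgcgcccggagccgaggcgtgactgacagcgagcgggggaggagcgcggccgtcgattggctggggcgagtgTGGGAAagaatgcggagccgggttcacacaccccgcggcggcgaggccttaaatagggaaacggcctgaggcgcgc
NOTCH2: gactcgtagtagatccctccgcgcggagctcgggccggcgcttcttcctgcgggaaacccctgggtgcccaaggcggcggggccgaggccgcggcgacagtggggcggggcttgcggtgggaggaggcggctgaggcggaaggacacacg
NOTCH2NLA: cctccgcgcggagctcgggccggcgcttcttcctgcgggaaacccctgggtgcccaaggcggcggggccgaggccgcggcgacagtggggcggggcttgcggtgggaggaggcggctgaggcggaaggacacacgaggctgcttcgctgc

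TGGGAA (on the other strand TTCCCA) was searched in the 300 bases from 250 before to 50 after each start. Among the 8 members, HES1 alone held it, with matches that begin 84 and 70 bases before the start. Of 35116 promoters of this length, 24.0% held at least 1 match and 3.80% held at least 2. HES4, a relative of HES1, held 1 match that begins 76 bases before the start, and HEYL held 2, while NRARP held none in this window. CACNAG (on the other strand CTNGTG), the N-box that HES repressors bind, occurred 4 times in the HES1 window. NOTCH1 held 2 matches, which overlap on opposite strands, and NRARP, NOTCH2, NOTCH3 and DLL4 held 1 each. JAG1 and JAG2 held 0. Of all promoters 38.0% held at least 1 match and 8.94% at least 2. A match of letters is a description of the window and not a measured site. The printed bases of NOTCH2 and NOTCH2NLA show the same run shifted by 15 bases, with 135 of 135 aligned bases identical, and over the whole windows of 300 bases 284 of 285 aligned bases were identical (99.6%).

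On the current reference the receptor genes lie on different chromosomes. GENCODE places NOTCH1 (Entrez 4851) on GRCh38 at chromosome 9, bases 136494433 to 136545786, and NOTCH2 (Entrez 4853) at chromosome 1, bases 119911553 to 120069626, both on the minus strand and both with 34 exons. NOTCH3 (Entrez 4854) spans bases 15159038 to 15200981 of chromosome 19. JAG1 (Entrez 182) spans bases 10637684 to 10673999 of chromosome 20 in 26 exons, and JAG2 (Entrez 3714) spans bases 105140981 to 105168824 of chromosome 14. HES1 (Entrez 3280) spans bases 194136145 to 194138732 of chromosome 3 in 4 exons, and NRARP (Entrez 441478) is a gene of 1 exon at bases 137300482 to 137302251 of chromosome 9. The RPKM count the reads over a whole gene and do not tell its exons or isoforms apart.

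Read totals recovered from the RPKM were 4488825, 4609696 and 4725150 in the order parent, subclone 1, subclone 2. The libraries listed 14703, 14900 and 14931 genes. Of the 10 members, 8 were listed in every library and 7 had a mean RPKM of at least 1. The hepatocyte list of 10 markers had 8, 8 and 9 listed in the parent, subclone 1 and subclone 2, with summed levels of 24.5, 113 and 106 RPKM. ALB, which encodes albumin, stood at 2.46 RPKM in the parent against 49.5 and 68.8 in the subclones, and made up most of the sum in subclone 2. TF, at 5.71, 30.3 and 5.88 RPKM, and FGB, at 1.66, 14.5 and 5.60, were not in this order of libraries. HNF4A had 11.7, 11.9 and 16.0 RPKM, AFP 2.41, 4.16 and 4.27, and APOB 0.300, 1.23 and 4.17. APOA2 was at 0 in every library and TTR at 0 in the parent and subclone 1. In the cultures, fewer cells of a kind and less RNA per cell cannot be told apart.

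JAG1 and HES1 were the most abundant Notch mRNAs in every strain, NOTCH2 was the main receptor, and no row was listed for DLL1 or DLL4. Relative to the parent, both subclones had more NOTCH1, NOTCH2, HES1 and NRARP mRNA and less JAG1 and HEY1 mRNA. NRARP reached 2.72-fold of the parental level in subclone 2, while HEY1 stood at 0.491-fold there.

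**Figure D1:**
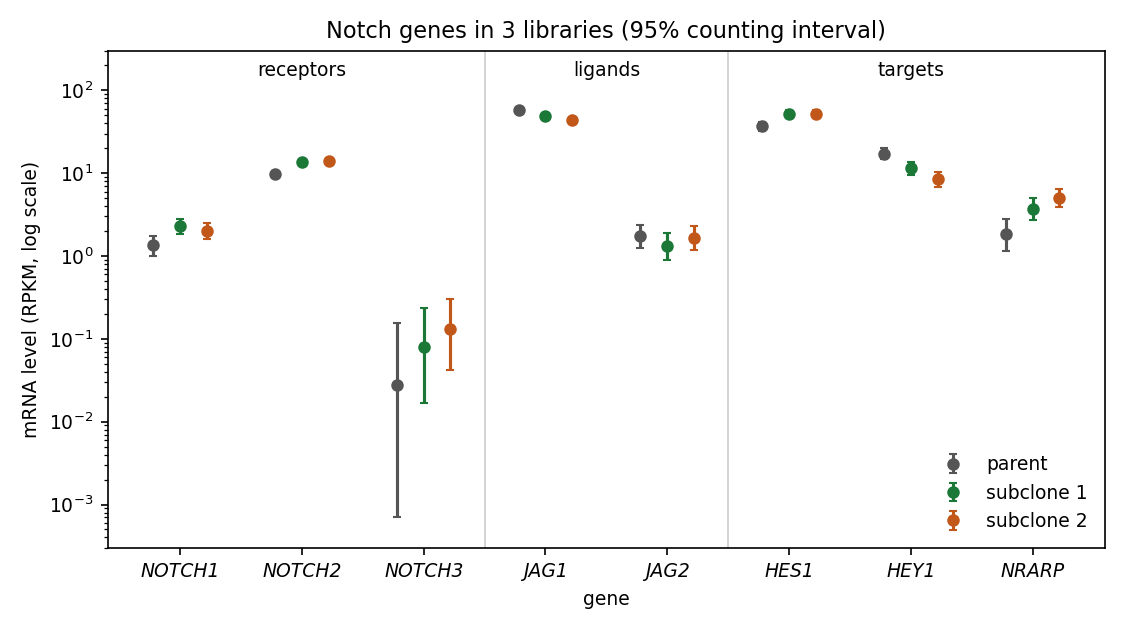
The plot gives the mRNA level (RPKM, log scale) of the 8 listed Notch genes in the parent, subclone 1 and subclone 2, with points for single libraries and bars for exact 95% Poisson intervals. JAG1 and HES1 lie highest, from 37.0 to 57.6 RPKM, NOTCH3 lies lowest, and HEY1 and NRARP approach each other from the parent to subclone 2.

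Among the receptors, NOTCH2 was read most often. It was at 9.84 RPKM in the parent (95% interval 9.01 to 10.7, 507 reads), 13.7 in subclone 1 (12.7 to 14.7, 722 reads) and 14.0 in subclone 2 (13.0 to 14.99, 757 reads). Both subclones lay above the parent without overlap of the intervals, and they did not separate from each other. The fold over the parent was 1.39 (1.24 to 1.56) in subclone 1 and 1.42 (1.27 to 1.59) in subclone 2, and that of subclone 2 over subclone 1 was 1.02 (0.922 to 1.13).

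A partial copy of the gene bears on this value. NOTCH2NL, the older symbol of a human-specific partial copy that keeps the first exons of NOTCH2, was listed at 6.02, 9.53 and 9.68 RPKM in the parent, subclone 1 and subclone 2. Its folds over the parent were 1.58 (1.27 to 1.98) and 1.61 (1.29 to 2.01), in the same direction as those of NOTCH2. Of the stretches of 50 bases along the NOTCH2 transcript, 4.03% also occur letter for letter in transcripts of NOTCH2NLA, the copy that carries the older symbol as an alias. NOTCH2NL was chosen after its values were seen. How reads from shared stretches were assigned is not given in the sources used here, and its part in the NOTCH2 difference was not tested.

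NOTCH1, a receptor best known from T-cell development and leukaemia, was lower than NOTCH2 by a wide margin. It stood at 1.34 RPKM in the parent (1.01 to 1.74, 56 reads), 2.28 in subclone 1 (1.85 to 2.78, 98 reads) and 2.02 in subclone 2 (1.62 to 2.49, 89 reads). The parental value was the lowest, its interval overlapped that of subclone 2 and not that of subclone 1, and the subclones overlapped each other. The folds over the parent were 1.70 (1.21 to 2.41) and 1.51 (1.07 to 2.15), and subclone 2 over subclone 1 gave 0.886 (0.657 to 1.19).

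NOTCH3, which in adult tissue is prominent in vascular smooth muscle, was close to the limit of detection. It had 1, 3 and 5 reads in the parent, subclone 1 and subclone 2, or 0.0275, 0.0805 and 0.131 RPKM. Its ratios were too imprecise to separate any pair of libraries, with intervals from 0.235 to 153 and from 0.532 to 225 for the subclones over the parent. NOTCH4, the remaining human receptor and not one of the 10, had 2, 1 and 1 reads.

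Within each library NOTCH2 led the receptors. NOTCH2 made up 87.8%, 85.2% and 86.6% of the summed RPKM of the 3 receptors in the parent, subclone 1 and subclone 2. NOTCH1 made up 12.0%, 14.3% and 12.6%, and NOTCH3 less than 1% in each. With NOTCH2NL added to NOTCH2, NOTCH1 made up 7.78%, 8.94% and 7.84%. The ratio of NOTCH2 to NOTCH1 was 7.35 (5.57 to 9.86) in the parent, 5.98 (4.83 to 7.46) in subclone 1 and 6.90 (5.53 to 8.70) in subclone 2, with intervals that overlap throughout.

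JAG1, a transmembrane ligand of the Serrate type, was the most abundant member in the parent. It measured 57.6 RPKM in the parent (54.8 to 60.5, 1548 reads), 48.5 in subclone 1 (45.9 to 51.1, 1338 reads) and 44.1 in subclone 2 (41.7 to 46.6, 1247 reads). The parent was the highest library and subclone 2 the lowest. The folds over the parent were 0.842 (0.782 to 0.906) and 0.765 (0.710 to 0.825), and that of subclone 2 over subclone 1 was 0.909 (0.841 to 0.983). This last difference depends on the scaling, since its log2 ratio of -0.14 was -0.01 after division by ACTB and -0.02 after division by GAPDH. JAG1 shares 79 exonic bases with AL050403.2 on the opposite strand, and whether the counting used strand is not given in the sources used here.

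JAG2, the other Serrate-type ligand, was low and did not separate the strains. Its level was 1.76 RPKM in the parent (1.25 to 2.39, 40 reads), 1.32 in subclone 1 (0.900 to 1.88, 31 reads) and 1.67 in subclone 2 (1.19 to 2.27, 40 reads). All 3 intervals overlap, and the folds over the parent were 0.755 (0.456 to 1.24) and 0.950 (0.597 to 1.51). JAG2 shares 469 exonic bases with AL512356.1 on the same strand, so its reads are uncertain to that extent. JAG1 made up 97.0%, 97.3% and 96.4% of the summed RPKM of the 2 ligands in the parent, subclone 1 and subclone 2.

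DLL1 and DLL4, ligands of the Delta type, had no row in any library. DLL4 is known from endothelial tip cells and DLL1 from somite formation. If their rows had been open to counting, 3 reads over the longest GENCODE transcript would amount to 0.211, 0.205 and 0.200 RPKM for DLL1 and to 0.195, 0.190 and 0.185 RPKM for DLL4 in the parent, subclone 1 and subclone 2. Levels up to these limits could have given 0 reads at this depth, although rows of 1 read occur, as for NOTCH3 in the parent.

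HES1, the classical Notch target and a transcriptional repressor, was higher in both subclones. It reached 37.0 RPKM in the parent (32.5 to 41.9, 245 reads), 51.8 in subclone 1 (46.5 to 57.5, 352 reads) and 51.7 in subclone 2 (46.5 to 57.3, 360 reads). The subclones did not separate from each other, and neither overlapped the parent. The fold over the parent was 1.40 in each subclone (1.19 to 1.65 and 1.18 to 1.65), and subclone 2 over subclone 1 gave 0.998 (0.859 to 1.16).

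HEY1, a related repressor that is prominent in vessels and heart, was ordered the opposite way. Its level was 17.2 RPKM in the parent (14.8 to 19.9, 180 reads), 11.4 in subclone 1 (9.51 to 13.7, 123 reads) and 8.44 in subclone 2 (6.82 to 10.3, 93 reads). The parent lay above both subclones without overlap of the intervals, while those of the subclones overlapped. The folds over the parent were 0.665 (0.525 to 0.842) and 0.491 (0.378 to 0.634), and the fold of subclone 2 over subclone 1, 0.738 (0.557 to 0.974), had an interval just under 1. After division by ACTB this interval ran from 0.608 to 1.06 and after division by GAPDH from 0.605 to 1.06, so that this last difference depends on the scaling. HEY1 (Entrez 23462) lies at chromosome 8, bases 79764010 to 79767863, on the minus strand.

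NRARP, the feedback inhibitor, had the largest ratio of the members with a mean RPKM of at least 1. It stood at 1.86 RPKM in the parent (1.16 to 2.81, 22 reads), 3.70 in subclone 1 (2.70 to 4.95, 45 reads) and 5.05 in subclone 2 (3.88 to 6.46, 63 reads). The parent was the lowest library, and its interval overlapped that of subclone 1 by a little and that of subclone 2 not at all. The folds over the parent were 1.99 (1.17 to 3.48) and 2.72 (1.65 to 4.64), and that of subclone 2 over subclone 1 was 1.37 (0.917 to 2.05). The gene length behind these RPKM came out as 2639 bases, 49.1% more than the GENCODE transcript of 1770 bases, which bears on its level against other genes and not on its ratios between libraries.

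**Figure D2:**
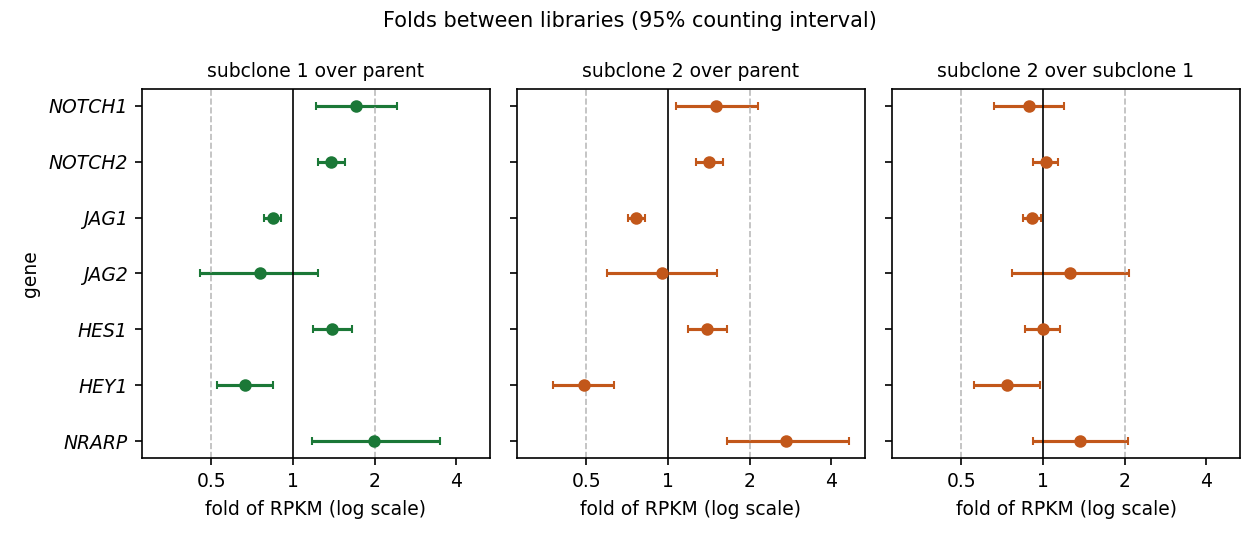
The plot gives folds of RPKM (log scale) for the 7 members with a mean RPKM of at least 1, in a panel for each pair of libraries, with bars for exact 95% Clopper-Pearson intervals. In both comparisons with the parent NOTCH1, NOTCH2, HES1 and NRARP lie above 1 and JAG1 and HEY1 under 1, and between the subclones JAG1 and HEY1 alone have intervals that leave out 1 on the RPKM as deposited, which include 1 after division by ACTB or GAPDH.

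The make-up of the target genes differed between the strains. HES1 made up 66.0%, 77.4% and 79.3% of the summed RPKM of the 3 targets in the parent, subclone 1 and subclone 2. HEY1 made up 30.7%, 17.1% and 13.0%, and NRARP 3.31%, 5.53% and 7.75%. Ratios within a library need no scaling between libraries. The HES1 to HEY1 ratio was 2.15 in the parent (1.77 to 2.62), 4.52 in subclone 1 (3.67 to 5.60) and 6.12 in subclone 2 (4.86 to 7.77), so that the parent was apart from both subclones. The HEY1 to NRARP ratio was 9.26 in the parent (5.93 to 15.2), 3.09 in subclone 1 (2.18 to 4.46) and 1.67 in subclone 2 (1.20 to 2.34), and its interval in the parent overlapped neither of the others.

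**Figure D3:**
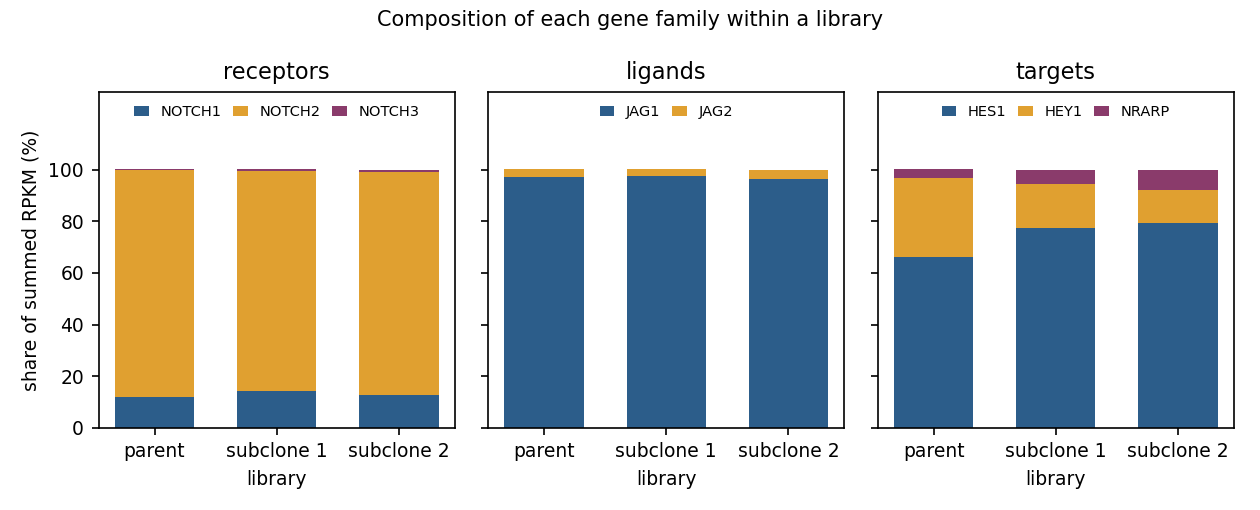
Stacked bars give the share (%) of each gene in the summed RPKM of the listed receptors, ligands and targets within each library. NOTCH2 holds 85.2% to 87.8% of the receptor sum and JAG1 at least 96.4% of the ligand sum in the 3 strains, whereas the HEY1 share of the target sum is 30.7% (parent), 17.1% (subclone 1) and 13.0% (subclone 2).

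The order of the levels differed at the top and in the middle of the list. In the parent it ran JAG1, HES1, HEY1, NOTCH2, NRARP, JAG2, NOTCH1 and NOTCH3, where NRARP and JAG2, and JAG2 and NOTCH1, did not separate beyond counting error. In subclone 1 HES1 and JAG1 did not separate, nor did NOTCH2 and HEY1, and NRARP, NOTCH1, JAG2 and NOTCH3 followed. In subclone 2 HES1 came before JAG1, followed by NOTCH2, HEY1, NRARP, NOTCH1, JAG2 and NOTCH3, and NOTCH1 and JAG2 did not separate. The JAG1 to HES1 ratio accordingly was 1.56 (1.36 to 1.79) in the parent, 0.936 (0.832 to 1.06) in subclone 1 and 0.853 (0.758 to 0.962) in subclone 2. The HEY1 to NOTCH2 ratio was 1.75 (1.47 to 2.08), 0.839 (0.687 to 1.02) and 0.605 (0.482 to 0.751) in the same order. The place of a gene in these orders rests on the length behind its RPKM, which the intervals do not cover. This length differed from the nearest GENCODE transcript for NRARP (2639 against 1770 bases), JAG2 (5077 against 5720) and HES1 (1475 against 1578). Close neighbours, as HES1 and JAG1 or HEY1 and NRARP in subclone 2, are uncertain to that extent.

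Set against all genes, the differences of the members were moderate. For this comparison a ratio was taken as log2 of (RPKM + 0.1) in a library over (RPKM + 0.1) in another, among the 11370 genes that average at least 1 RPKM, which understates the differences of low genes. In subclone 1 over the parent 0 of the 7 members in this set passed 2-fold upward and 0 downward, against 4.9% and 1.82% of all genes. In subclone 2 over the parent 1 member, NRARP, passed 2-fold upward and 1, HEY1, downward, against 5.33% and 2.16% of all genes. Between the subclones 0 members passed in either direction, against 1.42% higher and 1.39% lower. The log2 ratio of HEY1 in subclone 2 over the parent, -1.02, lies just past the threshold, and HEY1 is no longer past it with a pseudocount of 1 or after division by GAPDH.

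The counting intervals separated more members. In subclone 1 over the parent the interval lay above 1 for 4 members (NOTCH1, NOTCH2, HES1 and NRARP) and under 1 for 2 (JAG1 and HEY1), against 20.4% and 19.4% of all genes with whole reads. The same 4 and 2 members separated in subclone 2 over the parent, against 23.1% and 18.3%. Both comparisons use the 1 parental library, so the 2 sets of values are not independent of each other. Between the subclones 0 members had an interval above 1 and 2 (JAG1 and HEY1) under 1, against 11.9% and 8.74%. After division by ACTB neither of the 2 stayed under 1 and NOTCH2 and NRARP lay above it, and after division by GAPDH NOTCH2 alone lay above it, whereas no scaling altered a call against the parent. Many genes thus differ between single libraries by more than counting error, and such a difference compares libraries and not replicated strains.

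The place of a member among all genes gives its size in context. HEY1 stood at percentile 2.08 of the log2 ratios in subclone 2 over the parent and at percentile 7.49 in subclone 1. NRARP stood at percentiles 97.1 and 94.6, and NOTCH1 at 86.5 and 91.5. The other separated members lay between percentile 14.3 (JAG1 in subclone 2) and percentile 85.1 (HES1 in subclone 1). The median log2 ratio of the 8 listed members was 0.48 in subclone 1 and 0.49 in subclone 2 over the parent. For the 7 members with a mean RPKM of at least 1 it was 0.468 and 0.480, against 0.0043 and 0.037 for all genes past this filter. With a pseudocount of 1 the median of the 8 was 0.25 in each.

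**Figure D4:**
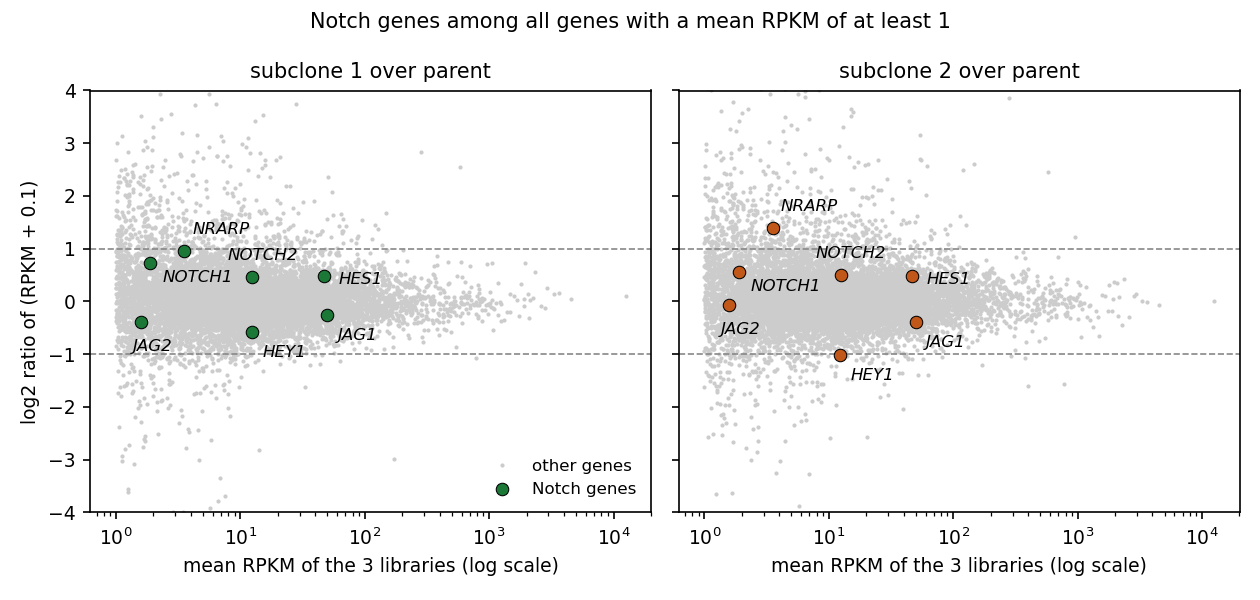
Each point is a gene that averages at least 1 RPKM, by its mean RPKM over the 3 libraries (log scale) and its log2 ratio over the parent, with the Notch genes in colour, dashed lines at 2-fold, and 39 and 53 genes beyond the axis limit of 4 left off the panels of subclone 1 and subclone 2. In subclone 2 NRARP at 1.40 and HEY1 at -1.02 lie past the dashed lines, and in subclone 1 all 7 members lie within them.

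The rest of the pathway was described by 81 further genes in 8 lists, of which 59 had a mean RPKM of at least 1. In subclone 1 over the parent 3 of the 59 were at least 2-fold higher and 0 lower, beside 4.9% and 1.82% of all genes. The counting interval lay above 1 for 20 (33.9%) and under 1 for 8 (13.6%), beside 20.4% and 19.4% of all genes. In subclone 2 over the parent 3 were at least 2-fold higher and 0 lower, beside 5.33% and 2.16% of all genes. There the interval lay above 1 for 22 (37.3%) and under 1 for 9 (15.3%), beside 23.1% and 18.3% of all genes. Their median log2 ratios were 0.068 and 0.12.

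The receptor-cleavage list, which holds the ADAM proteases and the gamma-secretase subunits, had all 8 genes at a mean RPKM of at least 1. Its interval counts over the parent were 6 higher and 0 lower in subclone 1, beside 20.4% and 19.4% of all genes. In subclone 2 they were 5 higher and 0 lower, beside 23.1% and 18.3%. The medians of the list were 0.36 and 0.35 on the log2 scale, against 0.0043 and 0.037 for all genes. APH1B, a scaffold subunit of gamma-secretase, had 1.43, 3.71 and 2.32 RPKM in the parent, subclone 1 and subclone 2, a fold of 2.60 (1.65 to 4.205) in subclone 1 and of 1.62 (0.985 to 2.71) in subclone 2. The subunit PSENEN, chosen after its values were seen, had 104, 157 and 169 RPKM, with folds of 1.51 (1.31 to 1.75) and 1.63 (1.41 to 1.88).

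For receptor maturation and glycosylation, 0 of 6 measured genes had an interval above 1 and 1 under 1 in each subclone over the parent, beside 20.4% and 19.4% of all genes in subclone 1 and 23.1% and 18.3% in subclone 2. The same background applies to the counts of the lists that follow. POFUT1, which adds O-fucose to the receptors, had 34.6, 34.3 and 34.1 RPKM, and the protease FURIN had 13.1, 13.4 and 13.8. In the list of ligand and receptor trafficking, with 10 measured genes, 3 had intervals above 1 and 2 under 1 in subclone 1, and 4 and 2 in subclone 2. NEURL1B, an E3 ubiquitin ligase that promotes ligand endocytosis, had 0.764, 2.06 and 1.75 RPKM, with folds of 2.70 (1.63 to 4.62) and 2.29 (1.37 to 3.95).

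In the list of other receptors and ligands 3 of 11 genes had a mean RPKM of at least 1. EGFL7, a secreted endothelial protein that can bind Notch receptors, had 1.28, 4.14 and 3.10 RPKM from 9, 30 and 23 reads, with folds of 3.25 (1.502 to 7.77) and 2.43 (1.08 to 5.96). The 10 endothelial markers summed to 39.3, 51.3 and 37.4 RPKM, with 5, 7 and 6 of them listed and TIE1, CLDN5 and ROBO4 at 0 in every library. Most of this sum was ESAM, an adhesion molecule of endothelial junctions, at 34.2, 39.2 and 29.8 RPKM. PECAM1 had 3.33, 9.81 and 4.46 RPKM, with folds over the parent of 2.95 (2.35 to 3.73) and 1.34 (1.03 to 1.75), and the receptor KDR had 1.36, 1.93 and 3.08 RPKM, with folds of 1.42 (0.918 to 2.22) and 2.26 (1.52 to 3.41). TEK was lower in the subclones than in the parent, at 0.370, 0.0901 and 0.0439 RPKM from 8, 2 and 1 reads. VWF had 2, 1 and 1 reads and EMCN 0, 2 and 1. CDH5, which defines endothelial cells, was at 0 in the parent and subclone 2. The part of endothelial transcripts in the EGFL7 and HEY1 values was not tested.

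Of the 11 genes of the nuclear complex 1 had an interval above 1 and 2 under 1 in subclone 1, and 2 and 2 in subclone 2. SNW1, a coactivator in this complex, had 43.4, 45.9 and 44.4 RPKM, and CCNC, the cyclin that with CDK8 acts on the Notch intracellular domain, had 19.7, 27.4 and 26.3. RBPJ itself, chosen after its values were seen, had 10.3, 10.7 and 12.4 RPKM, and its folds of 1.04 (0.801 to 1.35) and 1.21 (0.938 to 1.55) did not separate the strains. Among 11 measured co-repressors the counts were 6 above and 2 under 1 in each subclone. The deacetylase HDAC1 had 73.2, 82.0 and 82.5 RPKM.

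Other members of the HES and HEY family were sparse. Of 9 genes 2 had a mean RPKM of at least 1, and neither separated the strains. HES4, whose promoter is printed with its TGGGAA, had 1.48, 2.06 and 2.81 RPKM from 7, 10 and 14 reads, and HES6 had 1.77, 1.72 and 1.83. Among 10 measured genes reported as Notch targets in other systems, 3 had intervals above 1 and 1 under 1 in subclone 1, and 4 and 1 in subclone 2. CDKN1A, the cyclin-dependent kinase inhibitor p21, had 20.01, 39.2 and 55.8 RPKM, with folds of 1.96 (1.65 to 2.32) and 2.79 (2.38 to 3.28) over the parent and 1.43 (1.26 to 1.62) between the subclones. MYC, chosen after its values were seen, was the gene under 1 in both, at 88.3, 54.7 and 54.4 RPKM.

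**Figure D5:**
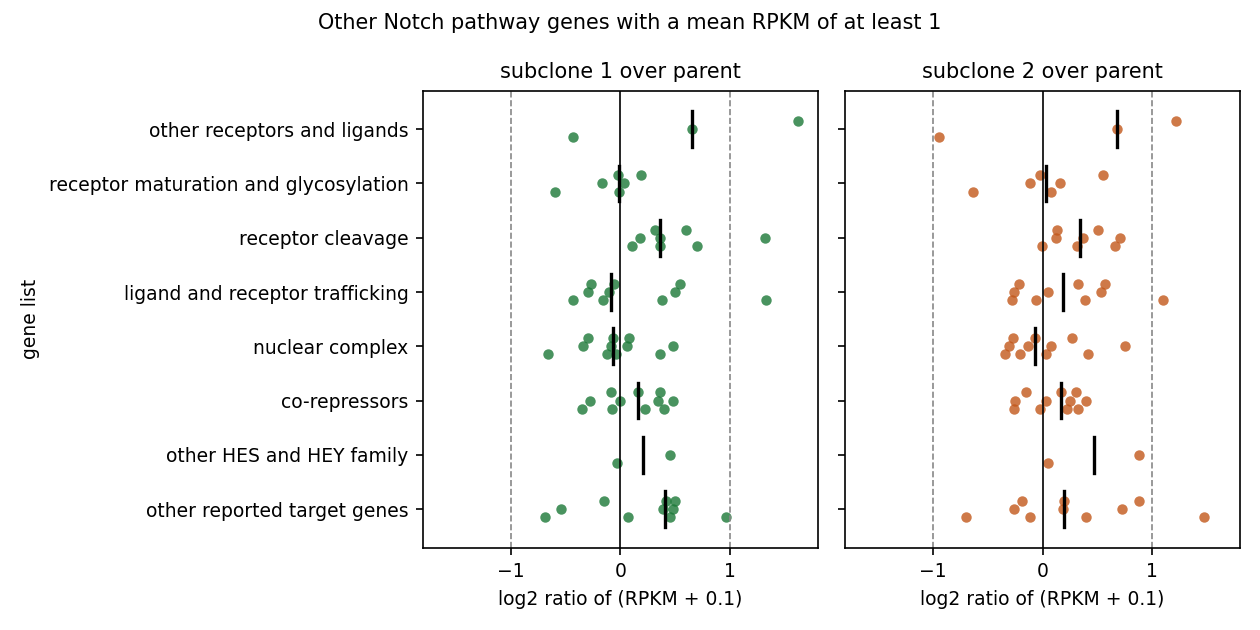
Points are the 59 other pathway genes that average at least 1 RPKM, by list, at their log2 ratio of (RPKM + 0.1) over the parent, with a black bar at the median of each list and dashed lines at 2-fold (genes of 2 lists are drawn in both). The receptor-cleavage genes have a median of 0.36 in subclone 1 and 0.35 in subclone 2, and in the trafficking list NEURL1B alone lies past 2-fold.

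Markers of other lineages also differed between the libraries. The cholangiocyte list, which includes the Notch target SOX9, had 7 of 10 markers listed in every library and summed to 873, 674 and 488 RPKM in the parent, subclone 1 and subclone 2, with CFTR and PROM1 at 0 in each. Most of this sum was SPP1, which encodes osteopontin, at 603, 390 and 199 RPKM, while KRT19 had 178, 229 and 229 and SOX9 had 5.85, 8.32 and 6.73. JAG1 and HEY1 stood in the same order of libraries as SPP1, from the parent to subclone 2. Their difference between the subclones depends on the scaling, as given above. Other markers of the list were not in this order, as KRT7, at 14.4, 3.47 and 6.04 RPKM, and SOX4, at 70.3, 42.4 and 46.7. The fibroblast and stellate list had 5, 6 and 5 of 10 listed and summed to 15.7, 31.2 and 24.3 RPKM with PDGFRA, PDGFRB, ACTA2 and FAP at 0. In it the proteoglycan genes LUM, at 10.1, 24.0 and 21.0 RPKM, and DCN, at 0.773, 4.42 and 2.75, were higher in the subclones. The collagen gene COL3A1 had 4.42, 2.21 and 0.463 RPKM from 109, 56 and 12 reads, in the same order of libraries as JAG1 and HEY1. Another collagen gene, COL1A1, had 0.338, 0.403 and 0.0357 RPKM from 9, 11 and 1 reads and was not in this order. The leukocyte list had 6, 4 and 4 of 8 listed and summed to 84.5, 126 and 111 RPKM with CD3E and CSF1R at 0. Most of this sum was CD68, at 75.3, 112 and 99.6 RPKM, and CD79A had 7.79, 11.9 and 10.3. PTPRC had 2, 0 and 0 reads and CD14 had 1, 8 and 0. The part of these lineages, and of the hepatocyte markers above, in the Notch values was not tested.

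The genes most like NRARP were sought among 8211 genes that average at least 5 RPKM, by the distance between their pairs of log2 ratios over the parent. ZC3H12A, an RNase that degrades inflammatory mRNAs, lay nearest at 0.0643, with 7.24, 13.6 and 19.02 RPKM in the parent, subclone 1 and subclone 2. DEFB1, a beta-defensin, followed at 0.0658 with 47.4, 88.3 and 123 RPKM, and CDKN1A at 0.0801. The likeness rests on 3 libraries and 2 ratios that share the parent.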

How the data were processed

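Messenger RNA of 3 HCCLM3 strains was sequenced in 1 library each from 1 ug of total RNA with the Illumina TruSeq kit. The authors deposited RPKM per gene, with Entrez number and symbol, for genes with a value above 0, and the processing notes name the build hg19. The aligner, counting tool, annotation and strand handling are not given in the sources used here. Groups were taken from the labels. Members and gene lists were chosen with earlier results of these data known.

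Whole reads were recovered from the RPKM. The rows of a file run in falling order of reads, so the last 300 rows, taken as 1 read each, gave the library total, and the smallest gene length that made a gene's reads whole in all libraries and kept the row order gave its reads. This resolved 99.7% of genes and 99.9% of reads in each library. The method was also run on simulated data made from the recovered lengths, with rows in falling order of reads. That run could not check these assumptions or the length of a given gene. Intervals are exact Poisson (levels) and Clopper-Pearson (folds and ratios) at 95%, for counting error only. Library totals of 4488825 to 4725150 reads set their width. With 1 library per group no test was run, and no count test was used. Log2 ratios used a pseudocount of 0.1, and counts of genes used 2-fold among genes that average at least 1 RPKM.

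Named beside the 10 members were pathway genes that average at least 1 RPKM and were at least 2-fold different in any comparison, otherwise the 2 highest of a list, and the 3 genes nearest to the member with the largest ratio. NOTCH2NL, NOTCH4, PSENEN, RBPJ, MYC and the marker genes fall outside this rule, and 1 gene that it names is not reported here. Gene places are from GENCODE 29, and promoters from RefSeq. Alternatives were other pseudocounts, scalings, thresholds and filters, and other receptor sums. Scripts ran under Python 3.11.15 with scipy 1.17.1, pandas 2.3.3 and numpy 2.4.6.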

Additional observations from a re-analysis of the deposited data

How the results depend on the processing

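No paired analysis was possible because every group holds a single library, so that none could be left out either. Of 168 log2 ratios of members under the alternatives 3 changed sign, all in subclone 2 over subclone 1 and all with a counting interval that included 1, namely NOTCH2 centred on the median (-0.0014) and HES1 after division by ACTB (0.12) or GAPDH (0.11). Counting intervals under the scalings, an alternative added after seeing the data, kept the number of members apart from 1 against the parent, but between the subclones division by ACTB gave 2 above and 0 under 1, and division by GAPDH 1 above and 0 under 1. The median log2 ratio of the members was 0.25 with a pseudocount of 1 in each subclone over the parent. Counts of members past the threshold differed in 4 of 60 cases. With 1.5-fold in place of 2-fold, 2 members were higher in subclone 1 over the parent. With a mean RPKM of at least 5, 0 were higher in subclone 2, since NRARP is then left out. HEY1 was no longer 2-fold lower in subclone 2 with a pseudocount of 1 or after division by GAPDH, which left 0 lower, and its log2 ratio there ran from -1.06 to -0.95 over all alternatives. The log2 ratio of NRARP ran from 1.08 to 1.46 in subclone 2 (0.72 to 0.99 in subclone 1). For JAG1 division by ACTB gave -0.38 in subclone 1 over the parent. With NOTCH2NL summed into NOTCH2, the NOTCH1 share was 7.78%, 8.94% and 7.84% in the parent, subclone 1 and subclone 2. The NOTCH2 share was then 92.1%, 90.7% and 91.7%. With NOTCH4 added to the 3 receptors instead, the NOTCH2 share was 87.3%, 85.1% and 86.5% and the NOTCH1 share 11.9%, 14.2% and 12.5%. The median of all genes shifted by -0.13 in subclone 1 over the parent after division by ACTB and by 0.12 in subclone 2 over subclone 1 after division by ACTB or GAPDH. Of all genes past 2-fold, 72.9% were higher in subclone 1 over the parent (57.8% by ACTB) and 50.5% in subclone 2 over subclone 1 (64.04% by ACTB, 62.6% by GAPDH). Over all genes, 557 were 2-fold higher and 207 lower in subclone 1 over the parent, against 347 and 117 with a pseudocount of 1, 1523 and 884 with no filter, 233 and 71 with a mean of at least 5, and 1317 and 848 at 1.5-fold. In subclone 2 the counts were 606 and 246, against 380 and 150, 1553 and 941, 253 and 93, and 1444 and 830. Between the subclones they were 161 and 158, against 80 and 77, 842 and 902, 43 and 46, and 540 and 467. Depth limits NOTCH3, DLL1 and DLL4 most, with at most 5 reads.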
